A study of Homo sapiens with 16 samples.

Results

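Transcripts of 5 related RNA-binding proteins were followed through depletion of hnRNP L or SETD2. They were HNRNPL, its paralog HNRNPLL, and the polypyrimidine tract binding proteins PTBP1, PTBP2 and PTBP3, chosen by gene name from the 58884 genes of the table. All 5 were among the 16300 genes with a mean of at least 0.5 TPM that were tested. TPM express each gene per transcript length as a share of the library, summing to 1000000. RNA-seq was performed on 293T cells, a human embryonic kidney line that carries the SV40 large T antigen, with 2 libraries for each of 3 siRNAs: scramble (replicates 1 and 2), SETD2 (replicates 2 and 3) and hnRNP L (replicates 1 and 2). The cells were described as wild type and were harvested 72 h after transfection of siRNA, so that each target was lowered and not deleted. The study asked whether hnRNP L and the histone methyltransferase SETD2, which bind each other, act on shared transcripts. The study describes its replicates as independent and biological, while the labels do not say how the 2 libraries of an siRNA were obtained. The p-values from limma rest on the spread between these libraries, drawn towards a trend over all tested genes. Exact permutation p-values compare groupings of the libraries.

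These proteins bind RNA through RNA recognition motifs and steer which exons are joined. hnRNP L and its paralog favour CA-rich RNA, while PTB proteins bind pyrimidine tracts, often to repress exons. Several of these genes are known to limit their own level, or that of a paralog, by including or skipping an exon so that the mRNA is degraded by nonsense-mediated decay (NMD). PTBP1 is the widely expressed PTB protein, PTBP2 is best known from neurons and PTBP3 from blood cells.

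The exons through which such control is known to act in HNRNPL and HNRNPLL are extra exons, absent from the main transcript and annotated in 1 NMD transcript of each gene. In HNRNPL the extra exon is 70 bases long, lies at chr19:38841613-38841682 (hg38, minus strand) and follows exon 6. In HNRNPLL it is 83 bases long, lies at chr2:38577920-38578002 (hg38, minus strand) and also follows exon 6. They are shown to set the paralogs side by side, with the 100 intron bases before each exon in lower case and the exon in capitals.
HNRNPL extra exon: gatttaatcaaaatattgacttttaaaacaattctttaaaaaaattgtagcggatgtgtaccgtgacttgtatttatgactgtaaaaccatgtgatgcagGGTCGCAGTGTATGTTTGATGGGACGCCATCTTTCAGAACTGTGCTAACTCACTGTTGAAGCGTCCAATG
HNRNPLL extra exon: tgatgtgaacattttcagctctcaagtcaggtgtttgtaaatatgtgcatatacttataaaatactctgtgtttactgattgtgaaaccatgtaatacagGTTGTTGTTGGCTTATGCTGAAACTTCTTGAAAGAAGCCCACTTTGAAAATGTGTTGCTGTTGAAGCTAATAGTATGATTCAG
Of the last 20 intron bases before these exons, 17 were identical between the paralogs. Neither length is a multiple of 3, so that inclusion shifts the reading frame.

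In PTBP1 and PTBP2 the exon of this kind is a normal coding exon that is skipped. PTBP1 exon 11 at chr19:807869-807902 (hg38, plus strand) was skipped in 2 annotated NMD transcripts, and PTBP2 exon 10 at chr1:96806419-96806452 (hg38, plus strand) in 3. Both are 34 bases long and 25 of the 34 bases were identical. They are shown in the same way because PTB proteins bind the pyrimidine-rich intron before them.
PTBP1 exon 11: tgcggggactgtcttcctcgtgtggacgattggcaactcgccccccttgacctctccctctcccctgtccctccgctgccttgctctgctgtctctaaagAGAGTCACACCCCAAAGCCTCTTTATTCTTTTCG
PTBP2 exon 10: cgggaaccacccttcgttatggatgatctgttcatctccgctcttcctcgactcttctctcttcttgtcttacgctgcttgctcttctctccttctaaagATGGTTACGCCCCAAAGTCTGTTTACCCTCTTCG
Pyrimidines made up 69% of the 100 intron bases before PTBP1 exon 11 and 73% before PTBP2 exon 10. Annotated NMD transcripts also include a 71-base extra exon or skip exon 9 in PTBP1, and skip exon 3 in PTBP2. Before these exons pyrimidines made up 46%, 52% and 55%. Among 163841 internal exons of main transcripts across the genome the median was 55%, and 95.9% and 98.5% of these windows held a smaller share than PTBP1 exon 11 and PTBP2 exon 10. CTCTCT, read on the transcript strand, occurred in the upstream window of PTBP2 exon 10 and in 9.0% of all upstream windows. It did not occur in the upstream windows of PTBP1 exon 11 or of the HNRNPL and HNRNPLL extra exons. CACACA was in none of the 4 upstream windows shown as sequences, against 2.6% of all upstream windows. PTBP3 had no annotated NMD transcript among 8 transcripts, against 4 of 24 for PTBP1, 4 of 24 for PTBP2, 1 of 15 for HNRNPL and 1 of 12 for HNRNPLL. The deposited TPM sum all transcripts of a gene, so the use of these exons could not be read from them.

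The siRNA target HNRNPL was strongly lowered. HNRNPL (ENSG00000104824, chr19:38836370-38852347, minus strand) was at 341 and 457 TPM with scramble siRNA, at 395 and 413 TPM with SETD2 siRNA, and at 25.0 and 28.8 TPM with hnRNP L siRNA. Both hnRNP L siRNA libraries lay far below the other 4. The means were 399 ± 82.1 (SD, n = 2), 404 ± 13.2 (SD, n = 2) and 26.9 ± 2.67 TPM (SD, n = 2), so that 6.7% of the scramble level was left. The log2 fold change on the log2(TPM + 0.5) scale was -3.85 (SE 0.143, 95% interval -4.18 to -3.53, adjusted p = 8.48e-06, limma). In bulk RNA, fewer cells that express a gene and less RNA per cell cannot be told apart.

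HNRNPL was an abundant transcript before depletion and an ordinary one after it. With scramble siRNA 293 genes of the table had a higher mean TPM, and with hnRNP L siRNA 4224 did. Its place among the tested genes moved from the 98.2 to the 74.1 percentile. The 2 scramble libraries differed by 0.42 on the log2 scale, a wider gap than in 88.5% of tested genes, and this spread is small beside the loss.

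SETD2 siRNA left HNRNPL close to its level with scramble siRNA, at a log2 fold change of 0.03 (SE 0.143, 95% interval -0.29 to 0.36, adjusted p = 0.944, limma). The SETD2 siRNA libraries lay between the scramble libraries. Compared directly, HNRNPL was lower with hnRNP L siRNA than with SETD2 siRNA by a log2 fold change of -3.89 (SE 0.143, adjusted p = 5.25e-06, limma). The comparisons with scramble siRNA share their control libraries. SETD2 itself was at 13.4 and 11.7 TPM with scramble siRNA, at 4.24 and 4.91 TPM with SETD2 siRNA, and at 10.8 and 10.2 TPM with hnRNP L siRNA. With hnRNP L siRNA against scramble siRNA it was not called (log2 fold change -0.24, SE 0.132, 95% interval -0.54 to 0.06, adjusted p = 0.269, limma). With its own siRNA SETD2 fell to 36.5% of the scramble mean (log2 fold change -1.36, SE 0.132, adjusted p = 0.00603, limma). This call was lost without the filter on low values (adjusted p = 0.161) and, in fits of 5 libraries, without scramble replicate 1 (0.162) or SETD2 siRNA replicate 2 (0.082).

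**Figure D1:**
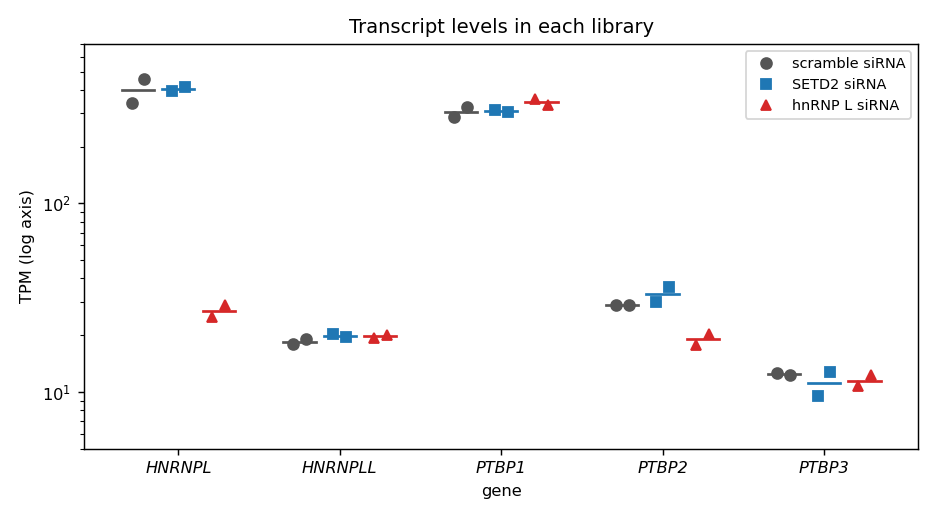
TPM of HNRNPL, HNRNPLL, PTBP1, PTBP2 and PTBP3 (log axis) in the 6 libraries, with points for libraries, shapes and colours for the siRNA and bars for the mean of 2 libraries. HNRNPL dropped to 25.0 and 28.8 TPM with hnRNP L siRNA and PTBP2 to 17.8 and 20.2 TPM, while the HNRNPLL, PTBP1 and PTBP3 points of the 3 siRNAs lie close together.

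A pseudogene copy moved with HNRNPL. HNRNPLP2 (ENSG00000259917, chr15:34489002-34490571, minus strand), named here after its values were seen, was at 4.14 and 4.46 TPM with scramble siRNA, at 5.42 and 4.54 TPM with SETD2 siRNA, and at 0.21 and 0.22 TPM with hnRNP L siRNA. It fell with hnRNP L siRNA (log2 fold change -2.75, SE 0.169, adjusted p = 0.000194, limma). The hnRNP L siRNA values lie under the pseudocount of 0.5, so the size of this change depends on it, with -2.12 at a pseudocount of 1 and -3.80 at 0.1. Its annotated transcript was 97.4% identical to the HNRNPL mRNA over 1563 aligned bases, and 236 of its 1496 windows of 75 bases, or 15.8%, also occurred in HNRNPL. Reads of both genes could therefore be exchanged, and the values of HNRNPLP2 are uncertain, while HNRNPLP2 amounted to between 0.764% and 1.37% of HNRNPL in every library. The other copies were barely detected, HNRNPLP1 at 0.02 to 0.08 TPM and the PTBP1 copy PTBP1P at 0 to 0.04 TPM.

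Genes that overlap the 5 genes were also low. AC008982.1, which overlaps HNRNPL on the same strand, was at 1.02 and 0.29 TPM in scramble replicate 1 and hnRNP L siRNA replicate 1 and at 0 in the other 4 libraries. AC008982.2, inside HNRNPL, did not exceed 0.17 TPM. AC011247.1 over HNRNPLL, MIR4745 in PTBP1, and RN7SL57P, RNA5SP295, RN7SL430P and HSPE1P28 in PTBP3 were listed at 0 in all 6 libraries.

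HNRNPLL, the closest relative of HNRNPL and known for control of exon choice in activated T cells, stayed near its scramble level. HNRNPLL (ENSG00000143889, chr2:38561969-38603586, minus strand) was at 18.0 and 18.99 TPM with scramble siRNA, at 20.3 and 19.5 TPM with SETD2 siRNA, and at 19.4 and 19.98 TPM with hnRNP L siRNA. The 6 values spanned a range of 1.13-fold. With hnRNP L siRNA the log2 fold change was 0.09 (SE 0.103, 95% interval -0.14 to 0.32, adjusted p = 0.612, limma), which allows a fold change between 0.905 and 1.25. This estimate depends on the scaling of the libraries. It was 0.18 with median-ratio scaling and 0.20 with quantile normalization, not called in either (adjusted p = 0.214 and 0.192, limma). The mean gain of HNRNPLL was 1.21 TPM, and HNRNPL fell by 372 TPM. With SETD2 siRNA the log2 fold change was 0.10 (SE 0.103, adjusted p = 0.693, limma), and between the depletions it was -0.01 (SE 0.103, adjusted p = 0.946, limma).

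The hnRNP L siRNA and scramble siRNA values of HNRNPLL did not overlap, by a margin smaller than the gap between the scramble libraries. Groups of 2 against 2 did not overlap for 56.6% of all tested genes in this comparison. HNRNPLL was among the more repeatable transcripts, since its gap between replicates was 0.04 on the log2 scale with hnRNP L siRNA and 0.07 with scramble siRNA, against medians over all tested genes of 0.13 and 0.17.

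With HNRNPL lowered and HNRNPLL near its scramble level, the balance of the pair shifted. The ratio and the sum below follow from the loss of the siRNA target and are not separate results. HNRNPLL amounted to 5.28% and 4.15% of HNRNPL in the scramble libraries and to 5.14% and 4.73% in the SETD2 siRNA libraries. In the hnRNP L siRNA libraries it amounted to 77.6% and 69.4%. The ratio was 15.67-fold higher than with scramble siRNA (exact permutation test, two-sided, p = 0.3333, the smallest value that 2 libraries against 2 allow). The summed TPM of the pair was 359 and 476 with scramble siRNA and 44.5 and 48.8 with hnRNP L siRNA, or 11.17% of the scramble mean (exact permutation test, two-sided, p = 0.3333).

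The sequences of the paralogs bear on whether reads or an siRNA could be shared. Over 1613 aligned coding bases 63.6% were identical. The longest run they share in coding sequence is 18 bases, tgtggtggaagcagacct, in exon 2 of HNRNPL at chr19:38847349-38847366 and in exon 2 of HNRNPLL at chr2:38591563-38591580 (hg38, both on the minus strand). No window of 75 bases, near the read length, and none of 19 bases was shared between the main transcripts. The most alike stretch of 90 coding bases had 69 identical bases and spanned the junction of exons 8 and 9 in both genes. It lies within chr19:38838967-38840136 for HNRNPL and chr2:38569877-38573250 for HNRNPLL, including the intron, and is shown with identical bases in capitals.
HNRNPL coding bases 1193 to 1282: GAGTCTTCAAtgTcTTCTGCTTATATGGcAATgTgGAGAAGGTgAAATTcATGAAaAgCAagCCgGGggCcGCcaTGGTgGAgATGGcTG
HNRNPLL coding bases 1052 to 1141: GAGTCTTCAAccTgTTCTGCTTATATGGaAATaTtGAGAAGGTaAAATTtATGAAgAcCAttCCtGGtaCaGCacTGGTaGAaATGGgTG
The mismatches are spread along the stretch, and the longest run of capitals is shorter than the 18 bases shared elsewhere.

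**Figure D2:**
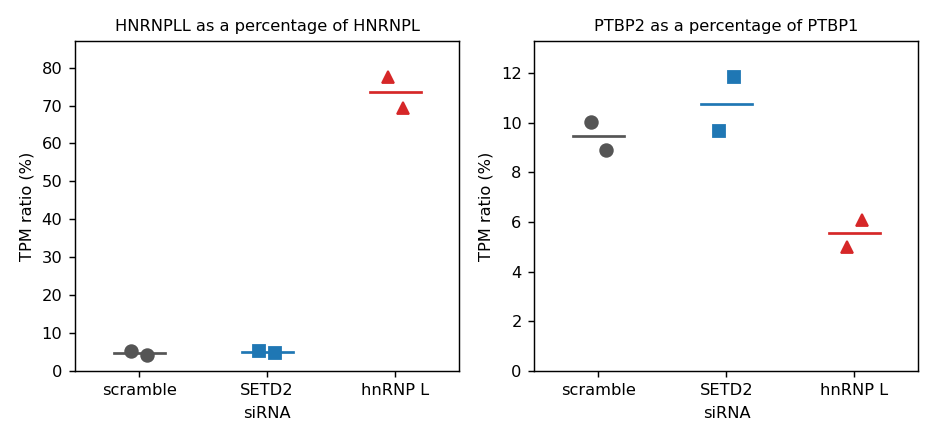
Ratio of TPM in percent within each library, HNRNPLL to HNRNPL on the left and PTBP2 to PTBP1 on the right, for scramble, SETD2 and hnRNP L siRNA, with points for libraries and bars for the mean of 2. HNRNPLL rises from about 5% of HNRNPL (5.28% and 4.15%) to 77.6% and 69.4% with hnRNP L siRNA, and PTBP2 drops from 10.0% and 8.90% of PTBP1 to 5.01% and 6.09%.

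PTBP1, which represses exons in most cell types and is known to bind hnRNP L, was the other abundant transcript of the 5. PTBP1 (ENSG00000011304, chr19:797075-812327, plus strand) was at 289 and 323 TPM with scramble siRNA, at 311 and 305 TPM with SETD2 siRNA, and at 356 and 332 TPM with hnRNP L siRNA. The hnRNP L siRNA libraries were the highest of the 6. The log2 fold change against scramble siRNA was 0.17 (SE 0.101, 95% interval -0.06 to 0.40, adjusted p = 0.311, limma), which allows a fold change between 0.959 and 1.32. Median-ratio scaling gave 0.26 and quantile normalization 0.15, not called in either (adjusted p = 0.12 and 0.215, limma). With SETD2 siRNA the log2 fold change was 0.01 (SE 0.101, adjusted p = 0.98, limma), and between the depletions 0.16 (SE 0.101, adjusted p = 0.337, limma).

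PTBP2, the PTB protein of neurons whose exon 10 is known to be skipped under PTBP1, was lower with hnRNP L siRNA. PTBP2 (ENSG00000117569, chr1:96721665-96823738, plus strand) was at 29.0 and 28.8 TPM with scramble siRNA, at 30.0 and 36.1 TPM with SETD2 siRNA, and at 17.8 and 20.2 TPM with hnRNP L siRNA. Both hnRNP L siRNA libraries were below the other 4. The means were 28.9 ± 0.12, 33.0 ± 4.31 and 19.02 ± 1.66 TPM (SD, n = 2 each). Against scramble siRNA the log2 fold change was -0.59 (SE 0.122, 95% interval -0.87 to -0.31, adjusted p = 0.0205, limma). This was 1.507-fold, just past the cut-off of 1.5. Against SETD2 siRNA the log2 fold change was -0.78 (SE 0.122, adjusted p = 0.00894, limma), or 1.714-fold. With SETD2 siRNA against scramble siRNA it was 0.19 (SE 0.122, 95% interval -0.09 to 0.46, adjusted p = 0.535, limma).

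PTBP2 was lower with hnRNP L siRNA than with scramble siRNA in all 18 other fits, while the call did not hold in all. The direction is a weak check, since several settings cannot change a difference between the same libraries and the groups did not overlap. With a pseudocount of 1, median-ratio scaling or quantile normalization the log2 fold change was -0.58, -0.50 or -0.49, under the fold cut-off. Without the filter on low values or without the variance trend the adjusted p was 0.0861 or 0.052. The call was also lost without scramble replicate 1 (adjusted p = 0.0928), scramble replicate 2 (0.0692), hnRNP L siRNA replicate 1 (0.173) or hnRNP L siRNA replicate 2 (0.0792), fits of 5 libraries in which the lone library was assumed to vary like the other groups. Against SETD2 siRNA it was lost without SETD2 siRNA replicate 3 (0.0858), hnRNP L siRNA replicate 1 (0.0955) or hnRNP L siRNA replicate 2 (0.0541).

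**Figure D3:**
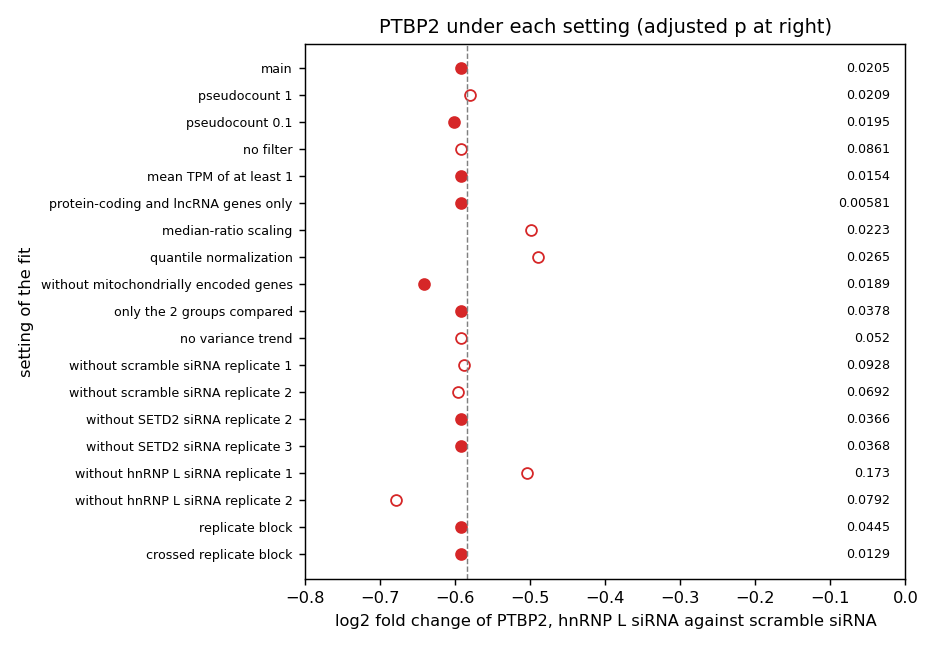
Log2 fold change of PTBP2, hnRNP L siRNA against scramble siRNA, under each setting of the fit (rows), with the adjusted p at the right, filled points where the gene was called and a dashed line at a 1.5-fold loss. The points run from -0.68 to -0.49, all below 0, on both sides of the dashed line.

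Set against PTBP1, PTBP2 was 10.0% and 8.90% in the scramble libraries, 9.65% and 11.9% in the SETD2 siRNA libraries, and 5.01% and 6.09% in the hnRNP L siRNA libraries. The hnRNP L siRNA libraries lay below the other 4. The ratio does not depend on scaling between libraries, and its log2 difference from scramble siRNA was -0.78 (exact permutation test, two-sided, p = 0.3333, the smallest possible). It joins the lower PTBP2 with a PTBP1 log2 fold change of 0.17 that was not called, so it is not a separate result. The summed TPM of PTBP1, PTBP2 and PTBP3 was 330 and 364 with scramble siRNA and 385 and 364 with hnRNP L siRNA (log2 difference 0.11, exact permutation test, two-sided, p = 0.6667).

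PTBP3, the PTB protein known from blood cells, was the lowest of the 5 transcripts. PTBP3 (ENSG00000119314, chr9:112217716-112333664, minus strand) was at 12.7 and 12.3 TPM with scramble siRNA, at 9.56 and 12.8 TPM with SETD2 siRNA, and at 10.7 and 12.3 TPM with hnRNP L siRNA. The groups overlapped in each comparison. The log2 fold change was -0.12 (SE 0.151, 95% interval -0.46 to 0.23, adjusted p = 0.655, limma) with hnRNP L siRNA, -0.17 (SE 0.151, adjusted p = 0.664, limma) with SETD2 siRNA and 0.05 (SE 0.151, adjusted p = 0.857, limma) between the depletions. The PTB coding sequences were 67.8% (PTBP1 and PTBP2), 70.9% (PTBP1 and PTBP3) and 70.7% (PTBP2 and PTBP3) identical, and no pair of the 5 main transcripts shared a window of 75 bases. Windows of 19 bases were shared by HNRNPL and PTBP2 (9, with a longest run of 22 bases, nearly all T) and by PTBP2 and PTBP3 (3). No other pair of the 5 shared any. Whether an siRNA matches these stretches was not tested.

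Counted together, 2 of the 5 transcripts, HNRNPL and PTBP2, were called lower with hnRNP L siRNA than with scramble siRNA and 0 were called higher. Over all tested genes 6.76% were called in this comparison, 5.01% lower and 1.75% higher, and 28.4% had an unadjusted p under 0.05. HNRNPL is the siRNA target, so its loss is a check of the labels. With SETD2 siRNA against scramble siRNA, limma called 0 of the 5, and 0 had an unadjusted p under 0.05. Over all tested genes 0.104% were called, 0.0552% higher and 0.0491% lower, and 13.1% had an unadjusted p under 0.05. Between the depletions HNRNPL and PTBP2 were again called, both lower with hnRNP L siRNA, beside 6.84% of tested genes called, 4.69% lower and 2.15% higher, and 28.5% with an unadjusted p under 0.05. The groups did not overlap for 4 of the 5 transcripts with hnRNP L siRNA against scramble siRNA (56.6% of tested genes), for 2 of 5 with SETD2 siRNA against scramble siRNA (43.5%) and for 3 of 5 between the depletions (59.8%). Over all tested genes the log2 fold changes had medians of -0.08, 0.01 and -0.10 in these comparisons. Of the 1102 genes called with hnRNP L siRNA against scramble siRNA, 816 were lower and 286 higher, and with median-ratio scaling 528 were lower and 420 higher.

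**Figure D4:**
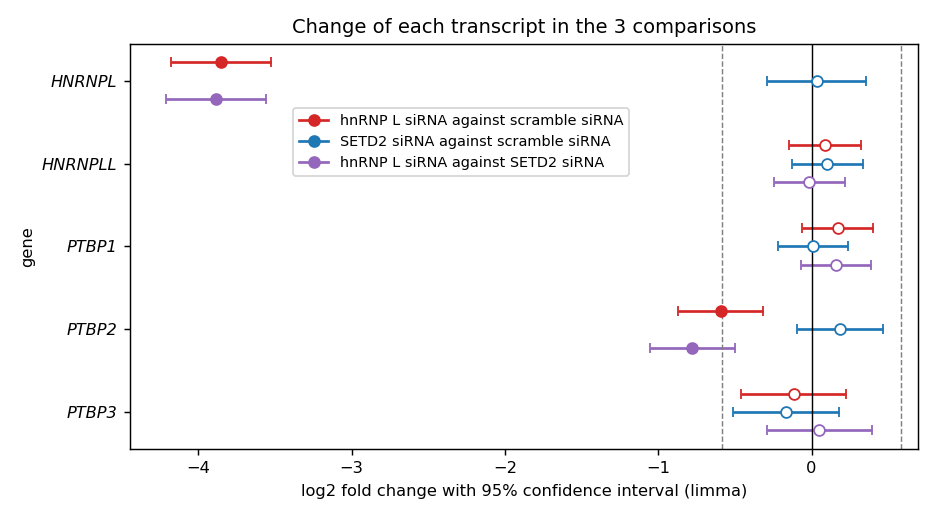
Log2 fold change with 95% interval (limma) of the 5 transcripts in the 3 comparisons, with filled points for called genes and dashed lines at a 1.5-fold change. HNRNPL lies at -3.85 and -3.89 and PTBP2 at -0.59 and -0.78 where hnRNP L siRNA is compared, and all other intervals include 0.

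TPM are per length, so the levels can be ranked. With scramble siRNA the order was HNRNPL, PTBP1, PTBP2, HNRNPLL and PTBP3, and with SETD2 siRNA it was the same. The scramble values of HNRNPL and PTBP1 came close to each other, 341 and 323 TPM at the nearest, which is less than the gap between the HNRNPL libraries. With hnRNP L siRNA PTBP1 came first, followed by HNRNPL, HNRNPLL, PTBP2 and PTBP3. The values of HNRNPLL (19.4 and 19.98 TPM) and PTBP2 (17.8 and 20.2 TPM) overlapped, so these 2 neighbours did not differ beyond their spread.

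Across the 6 libraries HNRNPL and PTBP2 varied together (Pearson r = 0.944 on the log2 scale), and PTBP1 varied against HNRNPL (r = -0.785) and PTBP2 (r = -0.819). These values describe 6 libraries, of which the hnRNP L siRNA pair sets most of the spread. Among 10352 genes with a mean of at least 5 TPM, 1084 reached r of at least 0.9 with HNRNPL and 1049 with PTBP2. Among the most like HNRNPL were EPHX2 (r = 0.9991), an epoxide hydrolase, and ADCK2 (r = 0.9984). ADCK2 was at 48.0 and 50.4 TPM with scramble siRNA, at 51.5 and 49.4 TPM with SETD2 siRNA, and at 23.8 and 24.6 TPM with hnRNP L siRNA. The most like PTBP2 were EXOC2 (r = 0.9967), a subunit of the exocyst, RANBP10 (r = 0.9958) and STK26 (r = 0.9951), a protein kinase. EXOC2 was at 21.1 and 21.1 TPM with scramble siRNA, at 22.6 and 24.9 TPM with SETD2 siRNA, and at 14.5 and 15.9 TPM with hnRNP L siRNA. The most like HNRNPLL were SMIM26 (r = 0.9922), CDCA4 (r = 0.992) and MRM3 (r = 0.9887), the most like PTBP1 were ZDHHC12 (r = 0.9934), AC006504.8 (r = 0.986) and POLR2I (r = 0.9851), and the most like PTBP3 were RAB3IP (r = 0.9905), ANAPC1 (r = 0.9886) and CBFB (r = 0.9869).

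Among proteins known to bind hnRNP L or PTB, none of the 6 transcripts listed was called by limma in any of the 3 comparisons. Over all tested genes 6.76% were called with hnRNP L siRNA, 0.104% with SETD2 siRNA and 6.84% between the depletions. At an unadjusted p under 0.05 there was 1 of 6 with hnRNP L siRNA (MED23), 1 of 6 with SETD2 siRNA (RAVER1) and 0 of 6 between the depletions, beside 28.4%, 13.1% and 28.5% of all tested genes. Their median log2 fold change was -0.06 with hnRNP L siRNA and 0.01 with SETD2 siRNA, beside -0.08 and 0.01 over all tested genes. MED23, a Mediator subunit that binds hnRNP L, had means of 16.9 TPM with scramble siRNA and 12.8 TPM with hnRNP L siRNA (log2 fold change -0.40, SE 0.125, adjusted p = 0.0769, limma). RAVER1, a corepressor of PTB, had a log2 fold change of 0.31 with SETD2 siRNA (SE 0.118, adjusted p = 0.323, limma). MATR3, a nuclear matrix protein that binds PTBP1, had a log2 fold change of -0.21 with hnRNP L siRNA (SE 0.131, adjusted p = 0.326, limma).

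Of 9 genes with an exon that PTB proteins are known to regulate, all of which were tested, 2 were called lower and 0 higher with hnRNP L siRNA against scramble siRNA, beside 5.01% and 1.75% of all tested genes. Their median log2 fold change was -0.22, beside -0.08 over all tested genes. At an unadjusted p under 0.05 there were 3 of 9 in this comparison and 5 of 9 between the depletions, beside 28.4% and 28.5% of all tested genes. SRC, a tyrosine kinase with a neuronal exon repressed by PTB, was at 13.4 and 13.8 TPM with scramble siRNA, at 14.2 and 14.6 TPM with SETD2 siRNA, and at 6.24 and 7.01 TPM with hnRNP L siRNA. It fell with hnRNP L siRNA (log2 fold change -0.99, SE 0.116, adjusted p = 0.00298, limma). FLNA, the actin crosslinker filamin A, was at 371 and 328 TPM with scramble siRNA, at 319 and 345 TPM with SETD2 siRNA, and at 215 and 211 TPM with hnRNP L siRNA. It also fell (log2 fold change -0.71, SE 0.103, adjusted p = 0.00627, limma). The hnRNP L siRNA libraries lay below the other 4 for both genes. SRC and FLNA were also lower than with SETD2 siRNA (log2 fold changes -1.07 and -0.64, adjusted p = 0.00232 and 0.00957, limma). SRC was called in each of these comparisons whichever library was left out. FLNA lost its call against scramble siRNA without hnRNP L siRNA replicate 1 (adjusted p = 0.0812) or replicate 2 (0.0714), and against SETD2 siRNA without any 1 of the 4 libraries compared (0.0746 to 0.0994). Without the filter on low values FLNA was not called in either comparison (adjusted p = 0.051 and 0.0599), and against SETD2 siRNA it fell short of the fold cut-off with median-ratio scaling (-0.53) or quantile normalization (-0.57).

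Of the same 9 genes, limma called 0 with SETD2 siRNA against scramble siRNA, beside 0.104% of all tested genes. In this comparison 2 of the 9 had an unadjusted p under 0.05 (13.1% of all tested genes). One of them was FAS, the death receptor with an exon that PTB represses, whose mean was 3.31 TPM with SETD2 siRNA against 5.24 TPM with scramble siRNA (log2 fold change -0.59, SE 0.139, adjusted p = 0.184, limma). PKM, the pyruvate kinase whose mutually exclusive exons PTBP1 helps to select, had a log2 fold change of 0.09 with hnRNP L siRNA (SE 0.135, adjusted p = 0.691, limma). DLG4, the postsynaptic density protein whose exon is repressed by PTB proteins, had a log2 fold change of -0.51 with hnRNP L siRNA (SE 0.161, adjusted p = 0.0786, limma). Gene-level TPM do not hold the inclusion of these exons.

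Of 9 genes with an exon or intron known to be under control of hnRNP L, 4 passed the filter on low values and limma called 0 in each comparison. Over all tested genes 6.76% were called with hnRNP L siRNA, 0.104% with SETD2 siRNA and 6.84% between the depletions, and 0 of 4 lies near these shares. The other 5 of the 9 genes were at or near 0, among them PTPRC, which encodes CD45 and is the best known hnRNP L target in T cells. Among the 4 genes, 2 had an unadjusted p under 0.05 with hnRNP L siRNA, 0 with SETD2 siRNA and 3 between the depletions, beside 28.4%, 13.1% and 28.5% of all tested genes. MALT1, a paracaspase of lymphocyte signalling, had a log2 fold change of -0.43 with hnRNP L siRNA (SE 0.135, adjusted p = 0.0752, limma). ITGA2, the integrin alpha 2 subunit, was at means of 1.81 TPM with scramble siRNA and 0.800 TPM with hnRNP L siRNA (log2 fold change -0.80, SE 0.229, adjusted p = 0.0562, limma). CASP9, the initiator caspase, had a log2 fold change of -0.07 (SE 0.141, adjusted p = 0.801, limma).

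**Figure D5:**
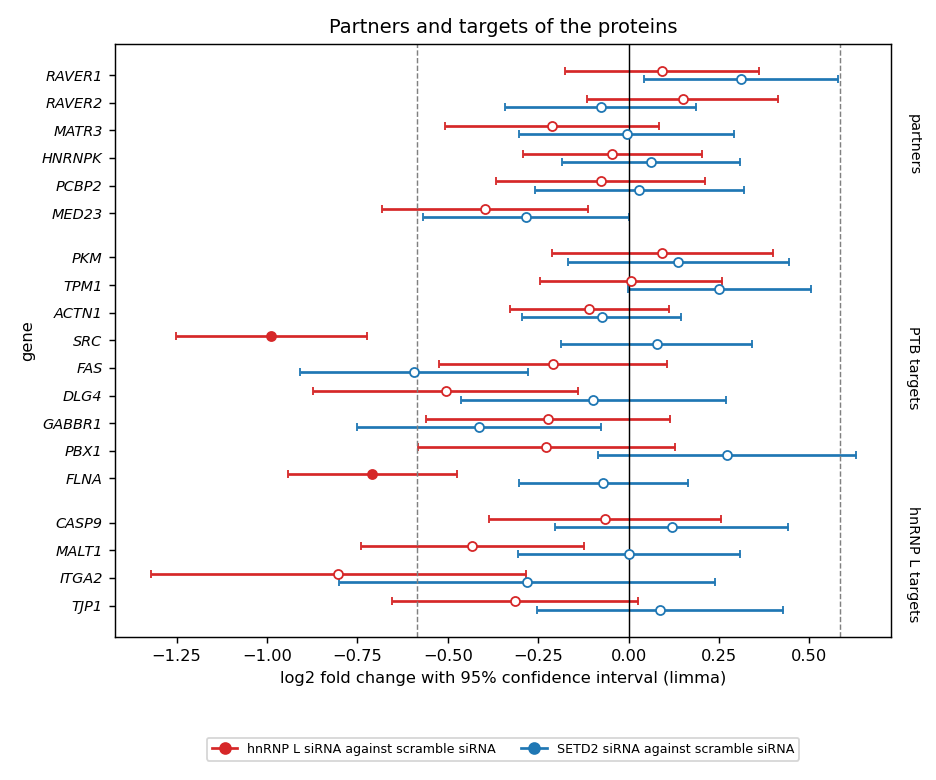
Log2 fold change with 95% interval (limma) of the tested genes of 3 lists, with hnRNP L siRNA in red and SETD2 siRNA in blue, both against scramble siRNA, filled points for called genes and dashed lines at a 1.5-fold change. SRC at -0.99 and FLNA at -0.71 are the filled points.

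The labelled cell line was checked against its markers. All 6 markers listed for 293T cells (VIM, KRT8, KRT18, PAX2, NEFL and NEFM) were at or above 1 TPM in each library. PAX2 was low, at 1.65 to 2.79 TPM. The summed level of the 6 stood at 1016 and 1197 TPM with scramble siRNA, at 1267 and 1359 TPM with SETD2 siRNA, and at 1476 and 1631 TPM with hnRNP L siRNA. VIM (means of 735 TPM with scramble and 885 TPM with hnRNP L siRNA) and NEFM (193 and 446 TPM) held most of this sum. Against scramble siRNA, hnRNP L siRNA gave uncalled log2 fold changes of -0.26 (KRT8), -0.03 (KRT18), 0.28 (VIM) and 0.06 (PAX2). The neurofilament genes NEFL and NEFM rose with hnRNP L siRNA against scramble siRNA (log2 fold changes 0.82 and 1.21, adjusted p = 0.00515 and 0.00166, limma). With SETD2 siRNA against scramble siRNA neither was called (0.29 and 0.36, adjusted p = 0.327 and 0.277, limma). Between the depletions NEFM was called (0.85, adjusted p = 0.00583, limma), and left-out libraries gave 0.70 to 1.01. NEFL fell short of the fold cut-off there (0.53, adjusted p = 0.0224, limma). Among markers of other cell types, PTPRC and TYR were at 0 in every library, ALB and DES were under 1 TPM, and COL1A1, a collagen of fibroblasts, was at 2.83 to 5.17 TPM. The call of NEFL was lost without hnRNP L siRNA replicate 2 (adjusted p = 0.0595, limma) or without the filter on low values (adjusted p = 0.0507, limma). The part of these marker changes in the result for PTBP2 was not tested.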

How the data were processed

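The 6 RNA-seq libraries of 293T cells, 2 each for scramble, SETD2 and hnRNP L siRNA, were used. ChIP-seq data were not analysed here. According to the methods and the submitters' processing notes, the authors used STAR 2.6.1c to align read pairs to hg38 and gene models of Ensembl release 96. RSEM 1.3.0 then gave the authors the TPM per gene that were deposited. RNA was depleted of ribosomal RNA and enriched for polyA. Each library's TPM sum to 1000000 and hold no read numbers. The study lists the number of read pairs of each library, but the reads behind a gene's TPM are not known, so no counting error is given and no count model was used.

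Values were transformed to log2(TPM + 0.5), on which changes of low genes come out too small. The 16300 genes whose mean reached 0.5 TPM were fitted together in R 4.3.3 by limma 3.58.1, using a mean for each siRNA and a variance trend over the 6 libraries. Adjusted p are Benjamini-Hochberg over all tested genes, and a call required both a value under 0.05 and more than a 1.5-fold change. The fit was run on simulated data with changes larger than the fold cut-off. That run does not bear on changes near the cut-off, such as that of PTBP2. Ratios and sums were compared with exact permutation tests. The genes named are the 5 members, genes overlapping them, SETD2, the called and up to 3 uncalled genes of 3 lists (protein partners, PTB targets, hnRNP L targets), cell markers, and the 3 genes most like each member in pattern. A gene of the pattern rule and a cell marker are not reported here. Members, lists and rules were chosen with earlier results of these data known. HNRNPLP2 and the other pseudogene copies were added after their values were seen. Sequences, transcripts and positions come from the hg38 genome with GENCODE 44, main transcripts being those of the MANE set, and were aligned with Biopython 1.88. Planned protein identities were replaced by nucleotide identities, since no protein table was used here. Python 3.11.15, pandas 2.3.3, NumPy 2.4.6, SciPy 1.17.1 and Matplotlib 3.10.9 were used.

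Alternatives were other pseudocounts, filters, biotypes, scalings, fold cut-offs and variance models, a fit of 2 groups, each library left out, and replicate numbers as a block.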

Additional observations from a re-analysis of the deposited data

How the results depend on the processing

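TPM and 2 libraries per siRNA limit these results: the reads behind each value are not known, and an exact test of 2 libraries against 2 cannot go below 0.3333. The loss of HNRNPL was called under every setting run, with log2 fold changes of -4.06 to -3.64 against scramble siRNA and -3.99 to -3.79 against SETD2 siRNA when each library was left out. PTBP2 against scramble siRNA was no longer called with a fold change above 2 required (-0.59), a pseudocount of 1 (-0.58), no filter (-0.59), median-ratio scaling (-0.50), quantile normalization (-0.49) or no variance trend (-0.59), and in each of these 1 of the 5 transcripts remained called. Left-out libraries gave -0.68 to -0.51 and 1 to 2 called transcripts. Against SETD2 siRNA its call was lost with a fold change above 2 (-0.78) and with no filter (-0.78, adjusted p = 0.0618), leaving 1 called transcript, and left-out libraries gave -0.91 to -0.65 and 1 to 2 called. Signs turned only for differences that were not called. These were HNRNPL with SETD2 siRNA under quantile normalization (-0.0939) and without mitochondrially encoded genes (-0.0647), PTBP1 with SETD2 siRNA under median-ratio scaling (-0.0056), quantile normalization (-0.0929) and without mitochondrially encoded genes (-0.0873), PTBP3 with hnRNP L siRNA under quantile normalization (0.0107), and HNRNPLL between the depletions under median-ratio scaling (0.0944), quantile normalization (0.11) and without mitochondrially encoded genes (0.0342). With libraries left out, the ranges were -0.18 to 0.24 (HNRNPL), -0.0709 to 0.0914 (PTBP1) and -0.37 to 0.0326 (PTBP3) with SETD2 siRNA, and -0.0396 to 0.0121 (HNRNPLL) and -0.15 to 0.25 (PTBP3) between the depletions. With SETD2 siRNA the HNRNPLL to HNRNPL ratio then ran from -0.10 to 0.25, the HNRNPL and HNRNPLL sum from -0.17 to 0.24, and the PTB sum from -0.0498 to 0.0909 on the log2 scale. The cause of these changes was not tested.

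Genes called with hnRNP L siRNA against scramble siRNA numbered 1102, and 1826 without a fold cut-off, 291 at a fold above 2, 235 with no filter and 172 to 821 with a library left out. The fewest followed from leaving out hnRNP L siRNA replicate 1 (172), hnRNP L siRNA replicate 2 (227) and scramble replicate 1 (363). Between the depletions the 1115 calls became 1753, 299, 186 and 127 to 1006. With SETD2 siRNA the 17 calls became 1 with no filter, 27 at a mean TPM of at least 1, 60 in protein-coding and lncRNA genes and 8 to 38 with a library left out. Libraries of the same number did not deviate together (r = -0.1256 across genes, scramble and hnRNP L siRNA). With the replicate block 715 genes were called and PTBP2 stayed called (adjusted p = 0.0445). The crossed replicate block, chosen after seeing the data, called 1406 genes.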
